A study of Mus musculus with 5 samples.

Results

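The 10 genes described here are 5 subunits of the transcription factor NF-kappaB (Nfkb1, Nfkb2, Rel, Rela and Relb) and 5 genes whose products act back on its signalling (Nfkbia, Nfkbiz, Tnfaip3, Birc3 and Traf1). They were chosen by name with earlier results of these data known, so counts of members beside shares of all genes are descriptions only. All 10 were rows of both deposited count tables, which had 18249 genes in common and 22980 between them. The tables hold 5 mouse kidney libraries. UUO nuclei came from a kidney at day 14 of unilateral ureteral obstruction, a tied ureter that leads to fibrosis, and were run on the 10x Chromium droplet platform. The other 4 libraries came from healthy kidney, as dissociated whole cells run by Drop-seq, and as nuclei run by 10x, by DroNc-seq and by sNucDrop-seq, which are bead-based droplet methods adapted to nuclei. The dissociation protocol names a C57BL/6 mouse for the cells. No label gives a genotype, an age or the number of animals, and no healthy library is described as sham-operated.

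NF-kappaB proteins form pairs that wait in the cytoplasm, held by inhibitor proteins, until a receptor signal leads to destruction of the inhibitor and entry into the nucleus. In the canonical route, kinases activated by tumour necrosis factor, interleukin or Toll-like receptors release pairs containing RelA or c-Rel. In the non-canonical route, slower processing of the Nfkb2 product releases pairs containing RelB. Several genes that the factor switches on encode its own inhibitors and subunits, so that the response limits and renews itself, and in kidney the pathway is known for its activity in tubule cells and leukocytes after injury.

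Each group had 1 library, so no difference below has a replicate check and no test was made. Levels are counts per 1000000 (CPM), the summed unique molecular identifiers (UMIs, tags that mark each captured RNA molecule) of a gene over all UMIs of the same barcodes, and all intervals are exact 95% intervals for counting error alone. A gene counted as measured when it was listed in both libraries with at least 20 counts over both sums, and as higher or lower when the CPM lay at least 2-fold apart. The UUO library held 6147 barcodes and 7411036 UMIs, and the healthy 10x library 2084 barcodes and 2947137 UMIs. The remaining libraries held 2769 to 3531 barcodes each, and the median UMIs per barcode lay between 1055 and 1630 over all 5 libraries. The UUO and healthy 10x libraries shared 23 barcode sequences, Drop-seq and sNucDrop-seq shared 1, and no other pair shared any. Xist, the transcript of the inactive X chromosome, stood at 0.405 CPM in UUO nuclei and 1321 CPM in healthy 10x nuclei, and the sum of 4 Y-linked genes at 619 CPM and 3.73 CPM, so that obstruction and sex cannot be told apart in that pair. sNucDrop-seq nuclei had Xist at 0 and the Y-linked genes at 446 CPM, on the same side as UUO nuclei, and DroNc-seq nuclei had 1309 CPM and 8.70 CPM, on the side of healthy 10x nuclei.

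Promoters are shown because members that feed back on NF-kappaB are classically under its own control. Among the 10 members, 7 had a window in the RefSeq promoter table (GRCm38.p6), and the 250 bases before each start site were searched on both strands for the kappa-B consensus. Windows of 4 members, Nfkbia, Tnfaip3, Rel and Nfkb2, held a match, against 8.23% of 27025 genes with a window. The matched bases are in capitals below, each stretch running 5′ to 3′ on the gene's strand.
Nfkbia, chr12:55492648-55492797, minus strand: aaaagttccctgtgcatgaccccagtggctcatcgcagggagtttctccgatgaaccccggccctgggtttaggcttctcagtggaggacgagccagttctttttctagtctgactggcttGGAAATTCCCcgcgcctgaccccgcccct
Tnfaip3, chr10:19015403-19015432, minus strand: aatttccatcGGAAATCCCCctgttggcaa
Rel, chr11:23771042-23771071, minus strand: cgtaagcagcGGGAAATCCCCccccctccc
Nfkb2, chr19:46304716-46304745, plus strand: ggggccgaaaGGGGCTTTCCcggctggagc
The printed match of Nfkbia ended 19 bases before the start site, that of Tnfaip3 2 bases, that of Rel 81 bases and that of Nfkb2 1 base. Each is the match nearest to a start site of its gene. Tnfaip3 held a further match 115 bases before the same start site. Nfkb2 held further matches 28 bases before the same start site and 226 and 215 bases before its other start sites. These start sites are those of RefSeq. By the GENCODE gene places given below, the matches of Tnfaip3 and Nfkb2 lie inside the gene, and those of Nfkbia and Rel before it. No match was found in the windows of Rela, Birc3 and Traf1. A match describes letters only, and no binding was measured.

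Among the subunits over all nuclei, Relb stood furthest apart. Relb, the non-canonical subunit (mm10, chr7:19606217-19629438), had 894 counts or 121 CPM (113 to 129) in UUO nuclei, against 24 counts or 8.14 CPM (5.22 to 12.1) in healthy 10x nuclei, a 14.8-fold difference (log2 3.89, interval 3.31 to 4.54). It stood at 18.4 CPM in DroNc-seq nuclei, 9.50 CPM in sNucDrop-seq nuclei and 1.89 CPM in Drop-seq cells. The UUO interval lay wholly above those of all 4 healthy libraries. Nfkb1 (chr3:135584655-135691547), whose product is a precursor of the partner of RelA and c-Rel, was the most counted member in nuclei, with 229 CPM in UUO nuclei against 94.0 CPM in healthy 10x nuclei (log2 1.29, 1.10 to 1.47). DroNc-seq nuclei had 165 CPM of Nfkb1, sNucDrop-seq nuclei 129 CPM and Drop-seq cells 10.0 CPM, and cells stood far below nuclei. UUO exceeded DroNc-seq nuclei by 1.39-fold (log2 0.47) and sNucDrop-seq nuclei by 1.77-fold (log2 0.83), so among the healthy nucleus libraries Nfkb1 was 2-fold apart from healthy 10x alone.

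Rel (chr11:23736847-23770970), which encodes the lymphoid and myeloid subunit c-Rel, had 22.1 CPM in UUO nuclei against 7.46 CPM in healthy 10x nuclei (log2 1.57, 0.92 to 2.28), on 164 and 22 counts. Nfkb2 (chr19:46304320-46312385), whose product is the RelB partner and inhibitor, had 11.3 CPM against 6.45 CPM (log2 0.81, 0.08 to 1.62), on 84 and 19 counts. Rela (chr19:5637483-5648130), which encodes the main activating subunit of the canonical route, had 22.4 CPM against 18.0 CPM (log2 0.32). Its interval, -0.14 to 0.79, held 0. Psd overlaps Nfkb2 on the opposite strand and Gm43430 overlaps Nfkb1, and whether strand was used in counting is not stated, so reads of those neighbours may be counted in. Over sNucDrop-seq nuclei the Rela difference was log2 1.49 (0.97 to 2.04) and over DroNc-seq nuclei log2 1.31, so the size of this difference depended on which healthy library was used.

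All 5 feedback genes had a higher CPM in UUO nuclei than in the healthy nucleus libraries that listed them, though not always by 2-fold. Nfkbiz (chr16:55811375-55838899), an atypical nuclear inhibitor that also co-activates some targets, had 174 CPM in UUO nuclei against 33.6 CPM in healthy 10x nuclei (log2 2.37, 2.08 to 2.68). Birc3 (chr9:7848699-7873186), a ubiquitin ligase that restrains cell death and the non-canonical kinase, had 191 CPM against 41.7 CPM (log2 2.19, 1.93 to 2.47). Nfkbia (chr12:55489410-55492647), the classical inhibitor that is remade after each round of activation, had 61.1 CPM against 21.0 CPM (log2 1.54, 1.15 to 1.95). The UUO and healthy 10x intervals did not overlap for any of these 3 genes. Other healthy libraries lay closer to UUO. DroNc-seq nuclei had 93.6 CPM of Nfkbiz, a 1.86-fold difference (log2 0.89) that misses 2-fold, and sNucDrop-seq nuclei had 53.1 CPM (log2 1.71). For Nfkbia, sNucDrop-seq nuclei had 47.5 CPM, a difference of log2 0.36. Tnfaip3 (chr10:19000910-19015657), a ubiquitin-editing brake on the pathway, had 118 counts or 15.9 CPM (13.2 to 19.1) in UUO nuclei. Traf1 (chr2:34941750-34961772), a receptor adaptor and well-known target, had 103 counts or 13.9 CPM (11.3 to 16.9) there. Both are listed at 0 in the healthy 10x columns, where rare genes show signs of having been filtered away, so no fold was computed against them. DroNc-seq nuclei had 4.95 CPM of Tnfaip3 and 3.92 CPM of Traf1, and sNucDrop-seq nuclei had 2.38 and 4.75 CPM. Over sNucDrop-seq nuclei Tnfaip3 was higher by log2 2.74 (1.85 to 3.79) and Traf1 by log2 1.55 (0.87 to 2.28).

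**Figure D1:**
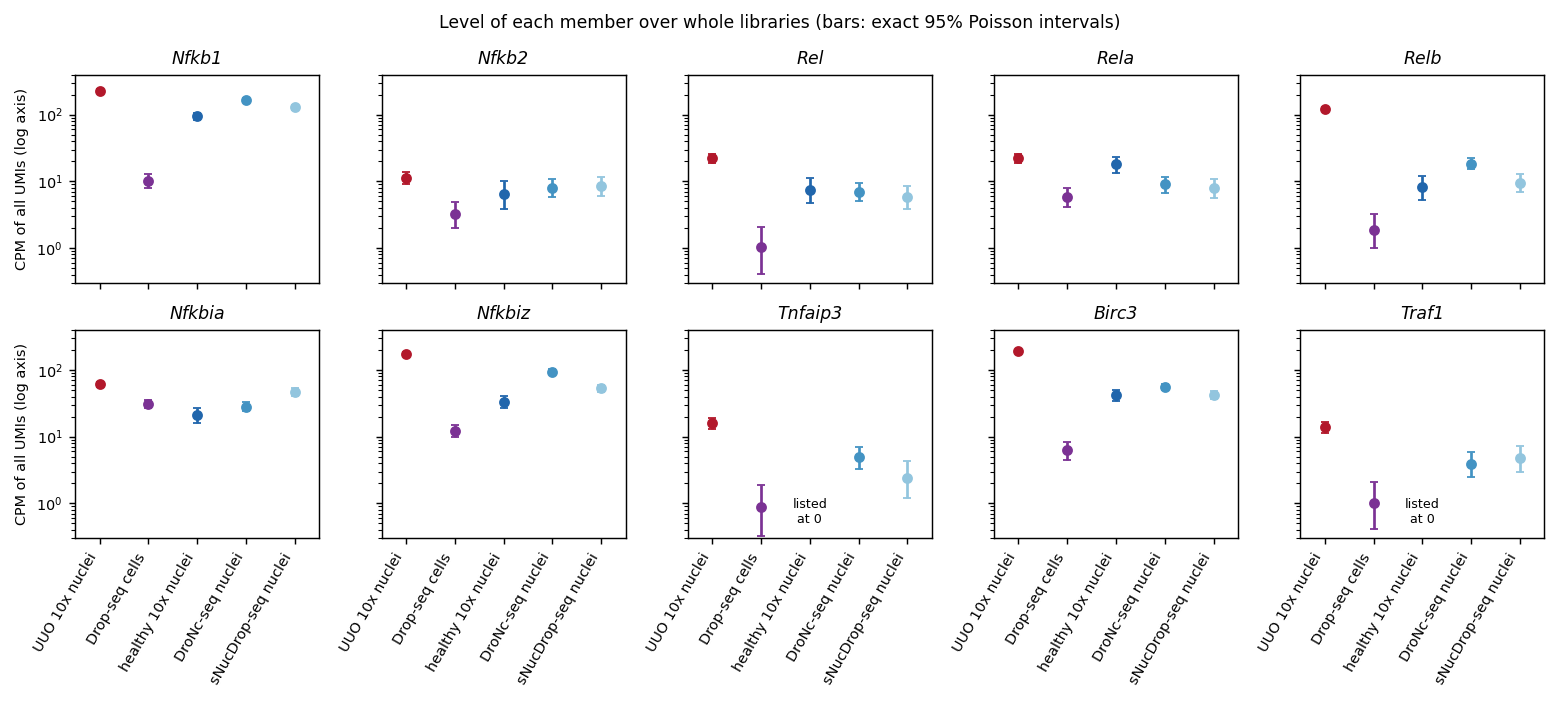
Level of each member in CPM (log axis) over whole libraries, with UUO nuclei at the left, Drop-seq cells next and the 3 healthy nucleus libraries after them; points are the summed level of 1 library and bars exact 95% Poisson intervals. Relb stood at 121 CPM in UUO nuclei and at 18.4 CPM or less in every healthy library, and Tnfaip3 and Traf1 are listed at 0 in healthy 10x nuclei.

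Of the 8 members measured in both 10x libraries, 6 were at least 2-fold higher in UUO nuclei and 0 lower, where 10.2% of 12831 measured genes were higher and 20.5% lower. The members' median log2 difference was 1.55, and that of all measured genes -0.16. Trimmed-mean scaling moved the median of all genes up by 0.17 and median-of-ratios scaling by 0.19. Over sNucDrop-seq nuclei 7 of 10 members were higher and 0 lower (19.0% and 31.1% of genes), and over DroNc-seq nuclei 7 of 10 higher and 0 lower (17.2% and 29.1% of genes). These 3 comparisons share the UUO library. The cell types of the libraries differed too, and in sums over all nuclei more cells of a type and more RNA per cell cannot be told apart. Summed markers of injured tubule (5 genes, 1 measured) were 728 CPM in UUO and 9.84 CPM in healthy 10x nuclei. Macrophage markers (9 genes, 5 measured) were 110 and 51.9 CPM, and fibroblast and pericyte markers (7 genes, 2 measured) 111 and 10.9 CPM. T cell markers (7 genes, 2 measured) were 146 and 78.7 CPM, and proximal tubule markers 635 and 6350 CPM. Markers listed at 0 in healthy 10x nuclei may have been filtered, so sums with unmeasured genes are not like for like. Without the macrophage, dedifferentiated and proliferating labels, a choice made after seeing the data, 6 of 8 members were still at least 2-fold higher. With equal weight to each class 5 of 8 were.

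A UMI of at least 1 member was found in 3246 of 6147 UUO nuclei, 52.8% (51.5 to 54.1), and in 502 of 2084 healthy 10x nuclei, 24.1% (22.3 to 26.0). Thinned to 500 UMIs per nucleus, the shares were 32.2% of 5346 UUO nuclei and 11.0% of 1956 healthy 10x nuclei. Healthy 10x nuclei list 8 of the 10 members above 0, so both of their shares cover fewer genes. The other thinned shares were 16.9% in DroNc-seq nuclei, 14.3% in sNucDrop-seq nuclei and 3.63% in Drop-seq cells. For Relb alone the thinned share was 5.53% of UUO nuclei and 0.366% of healthy 10x nuclei, and for Birc3 8.52% and 2.08%. The difference between UUO and healthy nuclei was therefore present at equal depth. No label was taken as lacking these genes, so the level of proximal tubule markers outside proximal tubule nuclei served as a measure of free RNA. It was 10.6% of the inside level in UUO nuclei and 9.65% in healthy 10x nuclei. Among members in UUO nuclei, the outside level of Nfkb1 was 73.5% of the inside level, that of Relb 72.8% and that of Traf1 24.7%. The part of free RNA in the member counts was not tested.

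Per kilobase of the RefSeq gene span, Nfkbia, a short gene, had the highest level of the members in UUO nuclei, 18.9 CPM per kb. Birc3 followed with 7.42, Nfkbiz with 6.30, Relb with 5.19 and Nfkb1 with 2.14 CPM per kb. In healthy 10x nuclei Nfkbia also led, with 6.50 CPM per kb, while Relb stood at 0.351 CPM per kb, below Rela at 1.68. The level of Relb per length thus exceeded that of Rela in UUO nuclei, at 2.09 CPM per kb for Rela, and fell short of it in healthy 10x nuclei. Intronic counting was not given and counts need not scale with span, so the order of members per kb may follow span rather than RNA.

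Proximal tubule nuclei gave the largest number of counts. The 2352 UUO nuclei of this class carried 5 labels, PT(S1), PT(S2), PT(S3), Dediff. PT and Prolif. PT, and were set against 705 healthy 10x nuclei labelled PT(S1-S2) or PT(S3). Of 8 measured members, 7 were at least 2-fold higher in UUO nuclei and 0 lower, where 14.6% of measured genes were higher and 20.7% lower, and the members' median log2 was 2.20. Relb had 509 counts or 140 CPM (128 to 153) in UUO nuclei, against 7 counts or 5.89 CPM (2.37 to 12.1) in healthy 10x nuclei, a 23.8-fold difference (log2 4.57, 3.52 to 5.89). Birc3 had 243 CPM against 23.6 CPM, a 10.3-fold difference (log2 3.37). These differences rest on few healthy counts, which the width of the intervals reflects.

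In the same nuclei Nfkb1 had 265 CPM in UUO against 61.5 CPM in healthy 10x (log2 2.11, 1.76 to 2.47), and Nfkbiz 183 CPM against 31.2 CPM (log2 2.55). Nfkbia had 63.0 CPM against 16.8 CPM (log2 1.90), and Rel 16.5 CPM against 3.37 CPM (log2 2.29, 4 healthy counts). Nfkb2 had 13.8 CPM against 5.05 CPM (log2 1.44). Rela, the exception to the 2-fold count, had 25.0 CPM against 14.3 CPM (log2 0.81, 0.05 to 1.65). Against the proximal tubule of sNucDrop-seq 8 of 10 members were higher and 0 lower (20.0% and 33.5% of genes), and against that of DroNc-seq 9 of 10 higher and 0 lower (19.8% and 29.7% of genes). Relb was higher there by log2 4.75 (4.01 to 5.60) over sNucDrop-seq and 4.10 (3.54 to 4.72) over DroNc-seq, close to its value over healthy 10x. Tnfaip3 had 23.1 CPM in UUO, against 1.39 CPM in sNucDrop-seq (log2 4.06, 2.65 to 5.96) and 3.32 CPM in DroNc-seq (log2 2.80). Traf1 had 22.6 CPM in UUO, against 1.04 CPM on 3 counts in sNucDrop-seq (log2 4.44, 2.84 to 6.74) and 1.21 CPM on 4 counts in DroNc-seq (log2 4.22).

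Split by segment, all 8 measured members were at least 2-fold higher in the sum of UUO PT(S1) and PT(S2) nuclei than in healthy PT(S1-S2) nuclei (14.5% of genes), and 5 of 6 in PT(S3) nuclei (20.2% of genes). The interval lay above 0 for 7 of the 8 members and for 5 of the 6. Macrophage markers (9 genes, 3 measured) in the proximal tubule class summed to 82.2 CPM in UUO and 78.3 CPM in healthy 10x nuclei. Of the 3 measured, 2 were at least 2-fold higher in UUO nuclei and 1 lower, so the near-equal sums hide differences in both directions. T cell markers (7 genes, 1 measured) summed to 52.8 and 42.9 CPM. Fibroblast and pericyte markers (7 genes, 1 measured) summed to 49.8 and 4.21 CPM, and B and plasma cell markers (8 genes, 1 measured) to 8.53 and 2.53 CPM. Injured tubule markers (5 genes, 1 measured) summed to 1177 and 19.4 CPM. Dividing cell markers (4 genes, 4 measured) summed to 96.3 and 37.0 CPM, and proximal tubule markers (8 genes, 7 measured) to 1165 and 13787 CPM. Markers listed at 0 in healthy 10x nuclei may have been filtered, so sums with unmeasured genes are not like for like. The part of these marker differences in the member differences was not tested.

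**Figure D2:**
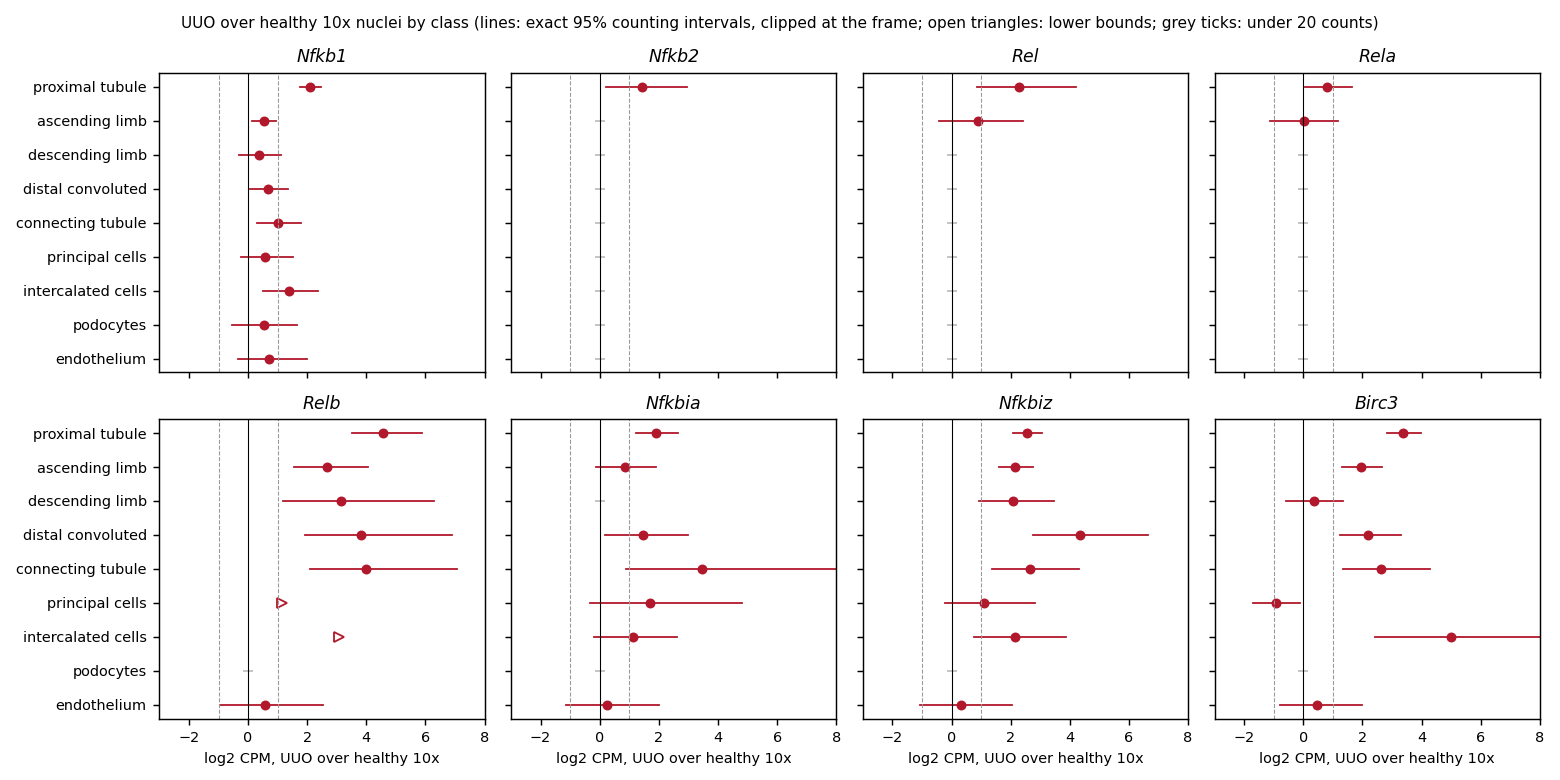
Difference of each of the 8 members listed in both 10x libraries as log2 CPM, UUO over healthy 10x nuclei, in 9 classes; points are 1 library over 1 library, lines exact 95% counting intervals, open triangles lower bounds where the healthy count was 0, and grey ticks pairs under 20 counts. Nearly all points lie right of 0, with Birc3 in principal cells at -0.92 the only measured pair on the left.

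Members stood above healthy 10x nuclei in most tubule classes outside the proximal tubule too. Over the 8 other classes with at least 20 nuclei in both 10x libraries, 37 pairs of class and member were measured, of which 36 had a higher CPM in UUO nuclei, 22 of them at least 2-fold, and 0 were at least 2-fold lower. With the proximal tubule, 44 of 45 pairs had a higher CPM, 29 of them at least 2-fold. A pair needed 20 counts over both sums, so pairs with few healthy counts entered through their UUO counts, which leans these totals toward UUO. With a count minimum of 1, 36 of 72 pairs were at least 2-fold higher and 5 lower. The pairs also repeat the same genes within 1 pair of libraries. Shares of all genes at least 2-fold apart were not pooled over classes and are given per class. No share of all genes with a higher CPM is given. The median log2 of all measured genes lay between 0.02 and 0.25 in the 8 other classes and was -0.10 in the proximal tubule. A higher CPM in UUO nuclei was thus common among all genes outside the proximal tubule. In connecting tubule nuclei 5 of 5 measured members were at least 2-fold higher, where 24.9% of genes were higher and 13.2% lower. Intercalated cells also had 5 of 5 higher (16.0% of genes higher, 12.4% lower). The distal convoluted tubule had 4 of 5 (20.9% higher, 14.4% lower), the ascending limb 3 of 7 (16.0% higher, 17.2% lower) and principal cells 3 of 5 (21.4% higher, 13.3% lower). The descending limb had 2 of 4 (12.5% higher, 13.5% lower), podocytes 0 of 1 (12.7% higher, 15.9% lower) and endothelium 0 of 5 (21.6% higher, 11.7% lower). Sizes depended on the healthy library. The measured members' median log2 in intercalated cells was 2.13 over healthy 10x, 1.25 over DroNc-seq and 0.74 over sNucDrop-seq (all genes 0.10, -0.05 and 0.07). In the descending limb it was 1.23, -0.02 and 1.06 (all genes 0.04, 0.06 and 0.22). The distal convoluted tubule had 2.19, 1.58 and 2.14 (all genes 0.17, 0.19 and 0.20). Over all 9 classes, Relb was at least 2-fold higher in 7 of the 8 classes where it was measured, 2 of them with 0 healthy counts, Nfkbiz in 7 of 8, Nfkbia in 5 of 7 and Birc3 in 5 of 8, and Nfkb1 in 3 of 9. Not every 2-fold call cleared counting error. The interval lay above 0 in 7 classes for Relb, 6 for Nfkbiz, 3 for Nfkbia, 5 for Birc3 and 5 for Nfkb1. In principal cells 3 members were called higher and 1 interval lay above 0.

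Relb in connecting tubule nuclei had 166 CPM in UUO against 10.4 CPM in healthy 10x (log2 4.00, 2.11 to 7.06, 2 healthy counts). In ascending limb nuclei Relb had 69.1 CPM against 10.8 CPM (log2 2.68, 1.55 to 4.06). In intercalated cells it had 124 CPM in UUO and 0 healthy counts, at least 8.33-fold higher with the healthy sum set at 3 counts. Relb was low in each of these healthy classes and higher in the obstructed kidney. Macrophage markers summed to 110 CPM in UUO and 20.8 CPM in healthy 10x connecting tubule, 105 and 26.2 CPM in the ascending limb, and 105 and 19.9 CPM in intercalated cells. T cell markers summed to 174 and 20.8 CPM, 449 and 165 CPM, and 86.5 and 34.8 CPM in the same classes. Of 9 macrophage markers 1 was measured in the connecting tubule, 1 in the ascending limb and 0 in intercalated cells. Of 7 T cell markers 1 was measured in each. Markers listed at 0 in healthy 10x nuclei may have been filtered, so these sums are not like for like. The classes' own markers summed to 1369 and 40266 CPM in the connecting tubule, 1586 and 16940 CPM in the ascending limb and 1846 and 4614 CPM in intercalated cells, and the part of these marker differences was not tested. Nfkbiz, the atypical inhibitor, had 228 CPM in UUO distal convoluted tubule against 11.2 CPM in healthy 10x (log2 4.35, 2.77 to 6.65, 3 healthy counts) and 212 CPM against 47.7 CPM in the ascending limb (log2 2.15, 1.60 to 2.75). Over DroNc-seq the distal convoluted tubule difference of Nfkbiz was log2 1.67. The markers of that class summed to 1504 CPM in UUO and 16465 CPM in healthy 10x nuclei. Markers of T cells (7 genes, 1 measured) summed to 472 and 116 CPM and those of macrophages (9 genes, 1 measured) to 137 and 26.1 CPM there. Their part in the result was not tested.

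Birc3 in intercalated cells had 158 CPM in UUO against 4.97 CPM on 1 healthy count, a ratio of 31.8 with an interval of log2 2.43 to 10.33. In the ascending limb it had 143 CPM against 36.9 CPM (log2 1.95, 1.31 to 2.65). Nfkb1 differed less between the libraries in these classes than in the proximal tubule, with 173 CPM against 120 CPM in the ascending limb (log2 0.53, 0.12 to 0.94) and 200 CPM against 98.6 CPM in the connecting tubule (log2 1.02). Over sNucDrop-seq the ascending limb difference of Nfkb1 was log2 -0.24 and over DroNc-seq -0.06, so its direction there turned with the healthy library. Nfkbia had 57.5 CPM against 5.19 CPM in the connecting tubule, on 1 healthy count (log2 3.47, 0.90 to 8.82), and 35.8 CPM against 20.0 CPM in the ascending limb (log2 0.84, -0.14 to 1.90).

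Birc3 in principal cells ran the other way. UUO nuclei of that label had 45 counts or 102 CPM of Birc3, against 22 counts or 193 CPM in healthy 10x nuclei (log2 -0.92, -1.69 to -0.12). The nuclei with a Birc3 UMI were 41 of 322 in UUO and 15 of 116 in healthy 10x, 12.7% and 12.9%. Against the principal cells of DroNc-seq, with 69.8 CPM, Birc3 was higher by log2 0.54 (-0.56 to 1.84), and against those of sNucDrop-seq, with 50.5 CPM, by log2 1.01 (-0.23 to 2.53). The healthy 10x value was the highest of the 3 healthy nucleus libraries. Principal cell markers in nuclei so labelled summed to 325 CPM in UUO, with Aqp3 at 0, and 6582 CPM in healthy 10x. Connecting tubule markers in the same UUO nuclei summed to 564 CPM, above the label's own markers.

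Nuclei labelled endothelium had member counts in healthy 10x kidney as well. Relb had 110 CPM in UUO endothelium against 73.9 CPM in healthy 10x endothelium (log2 0.58, -0.94 to 2.55), Nfkbia 110 against 92.4 CPM (log2 0.26) and Nfkb1 244 against 148 CPM (log2 0.72, -0.34 to 2.00). All 5 measured intervals held 0, with 46 healthy nuclei in the class. Over the 147 endothelial nuclei of sNucDrop-seq, 3 of 6 members were higher (26.0% of genes), namely Nfkbiz by log2 1.83, Birc3 by 1.40 and Relb by 1.29, and Nfkbia was lower by log2 -0.81 (-1.61 to -0.02). Endothelial markers summed to 4808 CPM in UUO and 3880 CPM in healthy 10x nuclei of the label. Ascending limb markers in the same nuclei summed to 197 CPM in UUO and 5154 CPM in healthy 10x, above the label's own markers there, and their part in these values was not tested.

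Within the UUO library, nuclei labelled Dediff. PT had the highest level of 6 members among 17 labels. Their 117 nuclei had 416 CPM of Nfkb1 (331 to 518), 370 CPM of Birc3 (290 to 466) and 308 CPM of Relb (235 to 397). They had 134 CPM of Nfkbia (87.3 to 196), 87.4 CPM of Tnfaip3 (50.9 to 140) and 72.0 CPM of Traf1 (39.3 to 121). The medians over the 17 labels were 200 CPM for Nfkb1, 158 CPM for Birc3, 124 CPM for Relb and 58.2 CPM for Nfkbia. A UMI of at least 1 member was in 102 of the 117 nuclei, 87.2% (79.7 to 92.6), and thinning to 500 UMIs gave 55.3%. The same thinned share was 38.6% for PT(S2), 36.1% for Prolif. PT, 34.1% for PT(S3) and 27.9% for PT(S1).

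Next in order for Nfkb1 stood Mac at 334 CPM and PT(S2) at 294 CPM, for Relb Mac at 175 CPM and JGA at 170 CPM, and for Birc3 Mac at 302 CPM and PT(S3) at 252 CPM. For Traf1 and Tnfaip3 the second label was Prolif. PT, with 64.6 CPM (35.3 to 108) and 41.5 CPM (19.0 to 78.9). PT(S2) was the third for both, at 20.4 CPM of Traf1 and 21.4 CPM of Tnfaip3. The intervals of neighbours in the order overlapped for every member apart from 1 pair for Traf1, so adjacent ranks are not separated at this depth. Tnfaip3 and Traf1 thus led in the dedifferentiated and proliferating labels, and Mac nuclei had 0 counts of Tnfaip3, which allows up to 47.7 CPM.

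The PT(S1) label stood lowest of the 5 proximal tubule labels for Nfkb1, Relb, Nfkbia, Tnfaip3 and Traf1, but not for the other members. PT(S1) nuclei had 133 CPM of Nfkb1 (99.4 to 175), the lowest of all 17 labels, while PT(S2) had 294 CPM (271 to 319) and PT(S3) 208 CPM (177 to 243). Relb stood at 74.2 CPM in PT(S1), 135 CPM in PT(S2) and 146 CPM in PT(S3). The PT(S1) intervals for Nfkb1 and Relb did not overlap those of the other segment labels. Rel stood at 17.9 CPM in PT(S1), above 17.5 CPM in PT(S2) and 10.3 CPM in PT(S3), and Birc3 at 187 CPM, above 171 CPM in Prolif. PT, all with overlapping intervals. PT(S1) nuclei also held the most proximal tubule marker signal, 4608 CPM, against 811 CPM in PT(S2), 742 CPM in PT(S3), 560 CPM in Dediff. PT and 379 CPM in Prolif. PT. Their injured tubule markers summed to 645 CPM, the lowest of the 5 labels, and those of Dediff. PT to 2483 CPM, the highest. Macrophage markers in Dediff. PT summed to 82.2 CPM, with Ptprc, Csf1r and Mrc1 at 0, and dividing cell markers in Prolif. PT to 956 CPM.

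**Figure D3:**
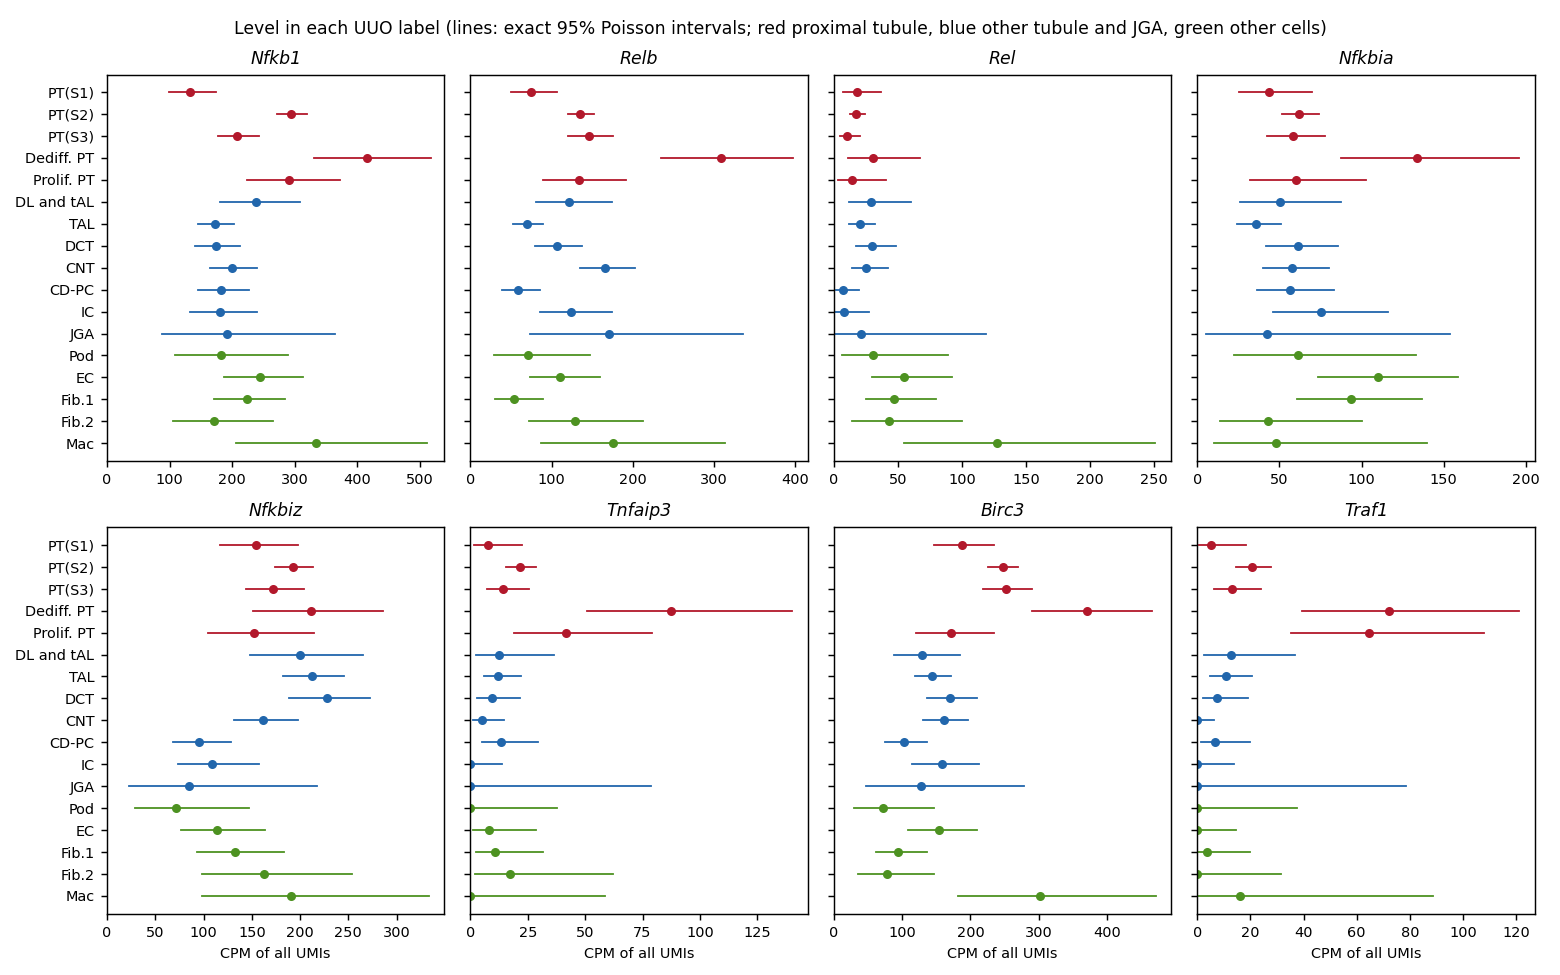
Level of 8 members in CPM in each of the 17 UUO labels; points are the summed level of 1 label, lines exact 95% Poisson intervals, and colours mark proximal tubule labels in red, other tubule labels and JGA in blue and other cells in green. Dediff. PT is the highest label for Nfkb1, Relb, Nfkbia, Tnfaip3, Birc3 and Traf1, with PT(S1) at the low end for Nfkb1.

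Other members peaked elsewhere. Rel was highest in Mac, 127 CPM (55.0 to 251) on 8 counts, then in EC at 55.1 CPM and Fib.1 at 46.7 CPM, and lowest in CD-PC at 6.77 CPM. Nfkb2 was also highest in Mac, at 31.8 CPM on 2 counts. Nfkbiz was highest in DCT at 228 CPM, TAL at 212 CPM and Dediff. PT at 211 CPM, which do not differ beyond counting error, and lowest in Pod at 71.3 CPM. Rela was highest in JGA at 63.9 CPM on 3 counts, then in Pod at 40.7 CPM and Dediff. PT at 36.0 CPM. The macrophage markers in Mac summed to 1798 CPM, with none of the 9 at 0, at a median of 326.5 UMIs per nucleus. The Fib.2 label was not borne out by its markers, whose sum was 85.7 CPM against 1324 CPM in Fib.1.

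In DroNc-seq and sNucDrop-seq nuclei Mac was the leading label for most members. In DroNc-seq nuclei Mac was highest for Nfkb1 at 519 CPM, Birc3 at 508 CPM, Nfkbiz at 275 CPM, Rel at 148 CPM and Relb at 106 CPM. MC followed for Nfkb1 at 344 CPM, Birc3 at 145 CPM and Relb at 103 CPM. In sNucDrop-seq nuclei Mac was highest for Nfkb1 at 494 CPM, Birc3 at 255 CPM and Nfkbiz at 159 CPM, while EC was highest for Nfkbia at 193 CPM and Relb at 45.1 CPM. The healthy 10x library had 3 nuclei labelled Mac. Among its 11 labels with at least 20 nuclei EC was highest for Relb at 73.9 CPM, Nfkbia at 92.4 CPM and Nfkbiz at 92.4 CPM. The lowest Nfkb1 level in that library was in PT(S1-S2), 52.9 CPM, and the highest in LH(DL), 182 CPM. Proximal tubule nuclei thus stood at the low end of Nfkb1 in healthy 10x kidney, where the level outside the class was 189% of that inside, against 73.5% in UUO. For Birc3 the outside level was 57.8% of the inside level in UUO and 229% in healthy 10x nuclei.

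The 130 UUO nuclei labelled Mac could be set against 54 of DroNc-seq and 43 of sNucDrop-seq. Macrophage markers in Mac nuclei of DroNc-seq summed to 3398 CPM, against 121 CPM over that library, but below proximal tubule markers at 4880 CPM. In those of sNucDrop-seq they summed to 1085 CPM, against 62.8 CPM over the library. That lay below endothelial markers at 1435 CPM and proximal tubule markers at 9570 CPM. The part of these other markers in the member levels was not tested. Over DroNc-seq 0 of 5 measured members were at least 2-fold apart, where 21.1% of genes were higher and 25.3% lower. Nfkb1 differed by log2 -0.63 (-1.45 to 0.13), Birc3 by -0.75 (-1.60 to 0.04), Nfkbiz by -0.53, Rel by -0.22 and Relb by 0.73. Over sNucDrop-seq 0 of 3 measured members were at least 2-fold apart (28.9% of genes higher, 23.2% lower), with Nfkb1 at log2 -0.57 (-1.44 to 0.28), Birc3 at 0.24 (-0.79 to 1.30) and Nfkbiz at 0.26. Birc3 and Nfkbiz thus turned direction with the healthy library. Median depth was 326.5 UMIs in UUO Mac nuclei, 1233 in those of DroNc-seq and 1229 in those of sNucDrop-seq, and differences of these sizes were not detectable with these counts.

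The other genes of the pathway were taken from 7 lists with 79 genes, of which 49 were measured over all nuclei in both 10x libraries. Of these, 9 were at least 2-fold higher in UUO nuclei and 3 lower, beside the 10.2% and 20.5% of all measured genes. Receptors had 3 of 9 higher. Tnfrsf11a, the receptor of RANK ligand, had 26.4 CPM in UUO against 4.41 CPM in healthy 10x (log2 2.58), Tnfrsf12a, the TWEAK receptor, 24.4 against 5.77 CPM (log2 2.08), and Tlr4, the endotoxin receptor, 18.4 against 4.75 CPM (log2 1.95). Edar, the ectodysplasin receptor, was lower, with 2.70 against 23.4 CPM (log2 -3.12). Tnfrsf21, a death receptor with the most counts of the list, had 386 against 612 CPM (log2 -0.66). Of 10 ligands 1 was measured, Tnfsf13b, the B cell survival factor, at 6.21 against 3.73 CPM (log2 0.73).

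Among 13 measured adaptors and ubiquitin ligases 2 were higher and 1 lower. Birc2, the paralog of Birc3 that lies 11.6 kb from it on chromosome 9, had 125 CPM in UUO against 31.2 CPM (log2 2.00, 1.69 to 2.32). Reads shared between Birc2 and Birc3 could move counts from either gene to the other. Birc2 was higher by log2 0.80 over sNucDrop-seq and 1.07 over DroNc-seq, less than Birc3 at 2.16 and 1.79. Traf2, which recruits both ligases to receptors, had 53.4 against 25.8 CPM (log2 1.05), and Rnf31, the catalytic subunit of the linear ubiquitin ligase, 7.96 against 15.9 CPM, at the 2-fold threshold. Of 10 kinases 1 was higher, Tbk1, a kinase of innate immune signalling, with 170 against 53.3 CPM (log2 1.67). Map3k14, the kinase that starts the non-canonical route, had 151 against 82.5 CPM (log2 0.87), and Ikbkb, the kinase that marks Nfkbia for destruction, 64.8 against 95.3 CPM (log2 -0.56).

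Inhibitors and co-regulators had 1 of 3 higher, Bcl3, a nuclear partner of the Nfkb1 and Nfkb2 products, with 18.4 against 6.11 CPM (log2 1.59). Nfkbib, a second cytoplasmic inhibitor, had 8.23 against 9.84 CPM (log2 -0.26). Of 6 measured other brakes, 0 were 2-fold apart, with Cyld, a deubiquitinase, at 52.5 against 38.7 CPM (log2 0.44). Of 7 measured other targets 2 were higher and 1 lower. Icam1, an adhesion molecule for leukocytes, had 45.9 against 4.75 CPM (log2 3.27), and Csf1, the macrophage growth factor, 15.0 against 3.05 CPM (log2 2.29). Sod2, a mitochondrial antioxidant enzyme, had 29.1 against 69.6 CPM (log2 -1.25). Bcl2l1 and Cflar, survival genes, differed by log2 0.05 and -0.27.

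Several targets are listed at 0 in healthy 10x nuclei and were picked out after their values were seen. Vcam1, an adhesion molecule, had 446 CPM in UUO nuclei, against 3.24 CPM in sNucDrop-seq nuclei (log2 7.11) and 9.04 CPM in DroNc-seq nuclei (log2 5.63). Cxcl1, a neutrophil attractant, had 73.5 CPM in UUO, against 1.73 CPM in sNucDrop-seq (log2 5.41), and complement C3 38.2 against 1.30 CPM (log2 4.88). Tnf itself stood at 2.43 CPM in UUO nuclei. Over sNucDrop-seq 21 of 61 measured pathway genes were higher and 10 lower (19.0% and 31.1% of all genes), and over DroNc-seq 15 of 59 higher and 12 lower (17.2% and 29.1%). In proximal tubule nuclei of both 10x libraries 11 of 48 were higher and 4 lower (14.6% and 20.7%), with Icam1 at 60.2 CPM in UUO against 4.21 CPM (log2 3.84) and Birc2 at 177 against 32.8 CPM (log2 2.43).

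**Figure D4:**
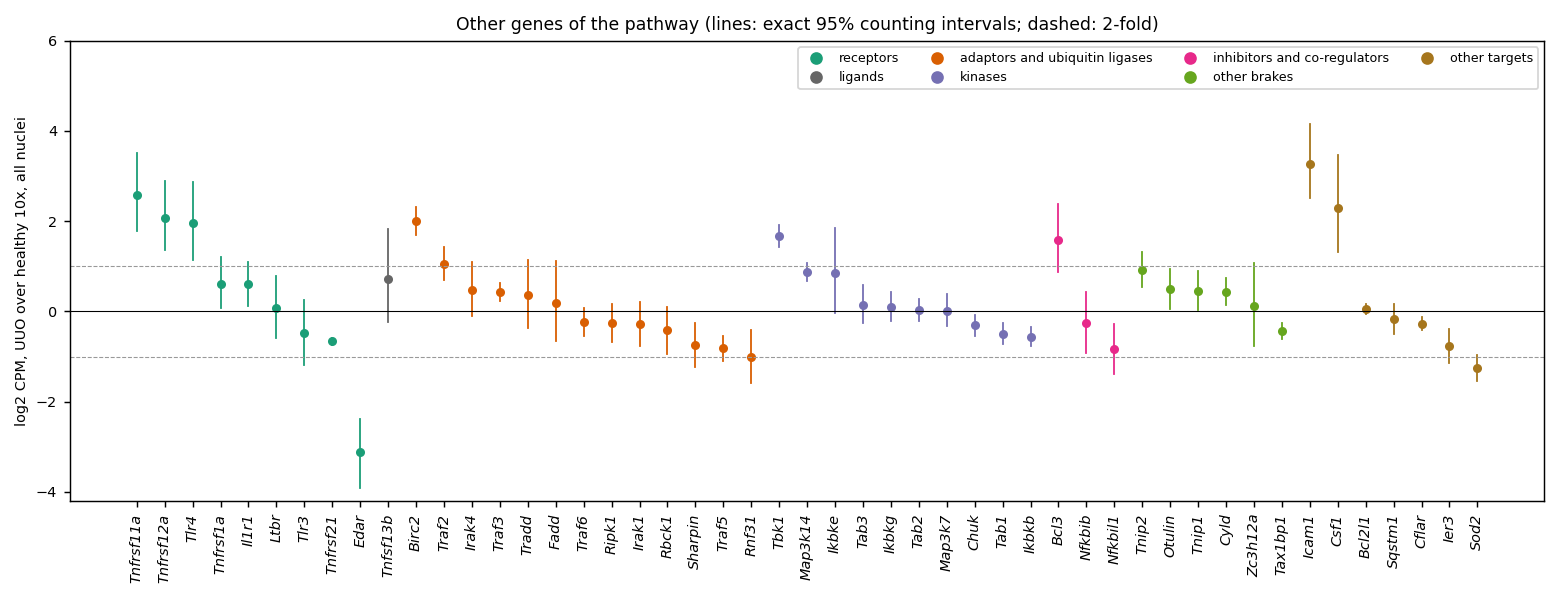
Difference of 49 other pathway genes as log2 CPM over all nuclei, UUO over healthy 10x, grouped and coloured by list; lines are exact 95% counting intervals and dashed lines mark 2-fold. Icam1 at 3.27 and Tnfrsf11a at 2.58 stand highest and Edar at -3.12 lowest, with most genes between the dashed lines.

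The genes whose levels over the 17 UUO labels ran most like a member's were found by Pearson correlation of log2(CPM + 10) among 7545 candidates with at least 100 counts. All labels share 1 library and low-count labels are noisy, so the values describe likeness only. Ccl2, a monocyte attractant, was the closest gene to both Nfkb1 (r = 0.82) and Nfkbia (r = 0.77). Cd44, a hyaluronan receptor, had r = 0.81 with Nfkb1, and Rnf19b 0.79. Traf1 was closest to Tec (r = 0.81), followed by Cxcl1 at 0.81 and Rnf19b at 0.80. Relb was closest to Hnrnpf (r = 0.78), Birc3 to Snx4 (r = 0.85), Nfkbiz to Ivns1abp (r = 0.86) and Tnfaip3 to Ppfibp1 (r = 0.85). Rel was closest to Rap2a (r = 0.87) and Rela to Vps41 (r = 0.79). Nfkb2, with under 100 counts, was left out.

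In healthy proximal tubule the members stood lower in whole cells than in nuclei, as most genes did. In the 3022 Drop-seq cells against 1821 sNucDrop-seq nuclei of that class, 5 of 7 measured members were at least 2-fold lower and 0 higher, where 48.6% of genes were lower and 17.8% higher, and the median gene stood at log2 -0.93. Nfkb1 had 7.97 CPM in cells against 81.0 CPM in nuclei (log2 -3.34, -3.83 to -2.89), Nfkbiz 9.50 against 50.4 CPM (log2 -2.41) and Birc3 5.77 against 25.7 CPM (log2 -2.16). These 3 lie well below the median gene. Relb had 1.70 against 5.21 CPM (log2 -1.62) and Nfkb2 3.22 against 7.65 CPM (log2 -1.25). Under trimmed-mean and median-of-ratios scaling, which moved the median of all genes by 1.08 and 1.05, 3 of 7 members were at least 2-fold lower.

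Nfkbia and Rela were the members nearest to 0 in that comparison. Nfkbia had 27.0 CPM in cells against 37.9 CPM in nuclei (log2 -0.49, -0.85 to -0.12) and Rela 5.26 against 7.30 CPM (log2 -0.47, -1.32 to 0.40), both above the median gene. Over DroNc-seq proximal tubule Nfkbia differed by log2 0.31 (-0.10 to 0.73) and over healthy 10x by 0.68 (0.00 to 1.43), while Nfkb1 stood at -3.93 and -2.95. Over DroNc-seq 6 of 8 members were lower (48.1% of genes) and over healthy 10x 4 of 6 (46.3%). In distal convoluted tubule Nfkbia was higher in cells, at 70.9 CPM on 23 counts, against 19.3 CPM on 4 counts in sNucDrop-seq nuclei (log2 1.88, 0.33 to 3.87), 20.4 CPM in DroNc-seq (log2 1.80) and 22.4 CPM in healthy 10x nuclei (log2 1.67). That value rests on 1 class and few counts, while Nfkb1 in the same class was lower in cells by log2 -4.04 over sNucDrop-seq. Nfkb1 spans 107 kb and Nfkbia 3.24 kb of the genome, the longest and the shortest of the members. The 3 comparisons share the Drop-seq library, and the dissociation, the platform and the part of the cell captured cannot be told apart.

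**Figure D5:**
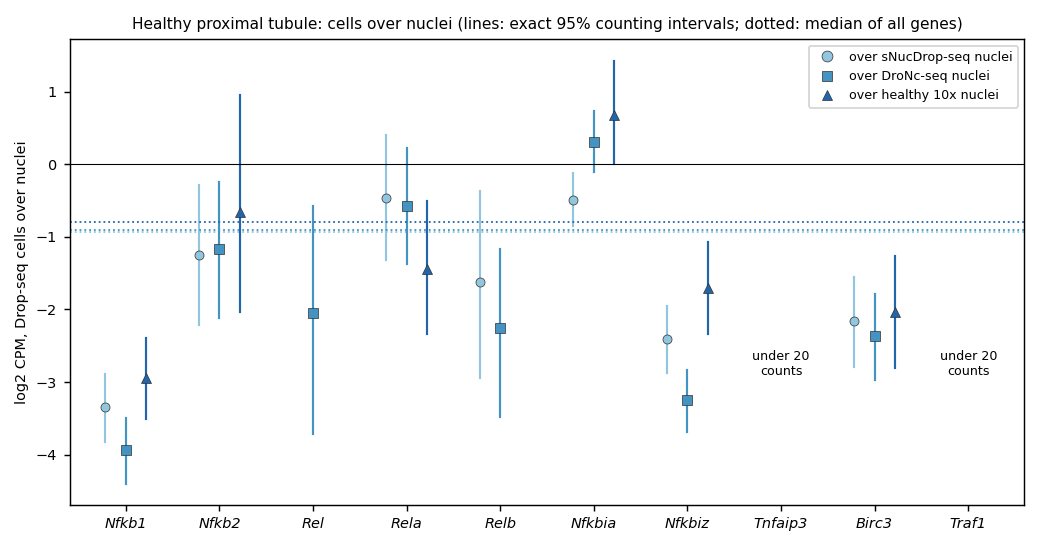
Difference of each member as log2 CPM in healthy proximal tubule, Drop-seq cells over sNucDrop-seq, DroNc-seq or healthy 10x nuclei; lines are exact 95% counting intervals and dotted lines the median of all genes in each comparison. Nfkb1 lies between -3.93 and -2.95 in the 3 comparisons and Nfkbia between -0.49 and 0.68.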

How the data were processed

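Per the labels and the deposited readme, 5 mouse kidney libraries were processed by the authors into UMI counts per gene and barcode with zUMIs, and STAR 2.5.3a and mm10 are named in the submitters' processing notes. Intronic counting, strand use, annotation and filters were not given in the sources used here. Deposited counts came with the authors' cell type labels, used as given (a macrophage label with a damaged character was read as macrophage). Counts were summed per library, label and class and scaled to all UMIs (CPM). Intervals are exact 95% Poisson, conditional binomial for ratios and Clopper-Pearson for shares. They cover counting error only. A gene listed above 0 in both libraries with at least 20 counts over both sums was measured, at least 2-fold was the call, a sum of 0 was set at 3 counts, and classes needed 20 barcodes. Shares at equal depth are means over random draws of 500 UMIs per barcode, computed exactly. No doublet caller was run; leaving out barcodes above 3 class medians of UMIs was an alternative. All 10 members are named, with up to 3 genes with the most counts and all those 2-fold apart per pathway list, and 3 like genes computed per member. The members and lists were chosen with earlier results of these data known. Gene places are GENCODE vM21 on mm10. Scripts were tested on simulated counts. Software was Python 3.11.15, numpy 2.4.6, scipy 1.17.1, pandas 2.3.3, matplotlib 3.10.9, R 4.3.3 and edgeR 4.0.16, the last for trimmed-mean scaling only. In the healthy 10x and DroNc-seq columns, the rarest listed genes were most often seen in 11 and 10 barcodes, where UUO and Drop-seq had 1. This is a sign of a gene filter, so a gene listed at 0 there may have been filtered.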

Additional observations from a re-analysis of the deposited data

Results flagged for a closer look

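Birc3 in principal cells, UUO over healthy 10x nuclei, had a log2 difference of -0.92 with an interval below 0, while its intervals in other classes, proximal tubule, ascending limb, distal convoluted tubule, connecting tubule and intercalated cells, lay above 0. The difference between classes was not tested, since each group has 1 library. It rests on 45 counts in UUO and 22 in healthy 10x nuclei, and over the other healthy nucleus libraries the log2 difference was 0.54 and 1.01.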

How the results depend on the processing

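No paired analysis was possible because each group has 1 library. Over all nuclei the number of members at least 2-fold higher in UUO stayed between 5 and 7, and in proximal tubule between 5 and 9, under every alternative, with 0 lower. The 29 pairs of class and member at least 2-fold higher became 13 of 16 with a count minimum of 100, and 26 to 36 otherwise. The 0 pairs at least 2-fold lower became 1 with barcodes of at least 1000 UMIs, 5 of 72 with a count minimum of 1, and 1 at a 1.5-fold threshold. Members at least 2-fold lower in Drop-seq than in sNucDrop-seq proximal tubule, 5 of 7, became 3 under trimmed-mean scaling and 3 under median-of-ratios scaling, which remove a shift of about 1 in log2. Nfkbiz in the descending limb was log2 -0.02 against DroNc-seq nuclei, where it was 2.08 against the healthy 10x ones; the cause was not tested. Of 730 single-gene differences between UUO and healthy nuclei recomputed under the alternatives, 687 lay inside their interval over healthy 10x, 42 outside it and 1 was reversed. Most alternatives reuse the same counts, and trimmed-mean and median-of-ratios scaling each left 67 of 67 inside. With DroNc-seq nuclei as reference 30 of 52 lay inside, and with sNucDrop-seq nuclei 37 of 51. Equal weight to each class left 2 of 8 inside. Of 134 such differences for Drop-seq cells, 91 lay inside their interval over sNucDrop-seq. Depth limits Nfkb2, Rel, Rela, Tnfaip3 and Traf1 in single classes, where few had 20 counts.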
